A study of Mus musculus with 4 samples.

Results

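Lysosomal genes were examined in mouse embryonic fibroblasts (MEFs), primary cells grown from embryos, that were cultured with or without pigment epithelium-derived factor (PEDF, also called Serpinf1), a secreted protein of the serpin family. The set held 39 genes, chosen by symbol for their place in the lysosome, of 55487 genes in the count table. It comprised 9 glycosidases (Glb1, Hexa, Gaa, Gla, Gusb, Neu1, Manba, Man2b1 and Fuca1), 7 genes for lipid breakdown, its activator and lipid export (Asah1, Smpd1, Psap, Ppt1, Lipa, Npc1 and Npc2), and 9 proteases or protease partners (Ctsa, Ctsb, Ctsd, Ctsk, Ctsl, Ctsz, Ctsh, Lgmn and Tpp1). A further 6 encode membrane proteins, an ion channel and progranulin (Lamp1, Lamp2, Scarb2, Cd63, Mcoln1 and Grn), 5 belong to the proton pump (Atp6v0d1, Atp6v1h, Atp6v1a, Atp6v0c and Atp6ap1), and 3 are transcription factors of the TFEB family (Tfeb, Tfe3 and Mitf). All 39 passed the filter of 10 counts over the libraries, which 19384 genes passed.

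The wild-type MEFs were at passage 2 per the labels, whereas the study's text gives passage 3 for the sequenced cells, and came from C57BL/6J embryos per the study's methods. Control cells were left untreated, and PEDF cells received 100 ng/mL of the protein, purified from mammalian cells, for 24 h. Each of 2 experiments used MEFs from different embryos and gave 1 control and 1 PEDF library of polyadenylated RNA. Total counts were between 14722848 and 18144640 per library, and between 22135 and 22647 genes had a count. All 13 fibroblast markers examined, collagens and Pdgfra among them, had counts in every library and summed to between 47522 and 59540 CPM (counts scaled to a common library size). Markers of macrophages, with sums of 134 to 212 CPM, and of other cell types also had counts, at much lower levels. In such bulk RNA, fewer cells of a type and less RNA per cell cannot be told apart.

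Lysosomes are acidic organelles in which hydrolases break down the proteins, lipids and sugar chains that reach them by endocytosis and autophagy. A rotary proton pump keeps the lumen acidic, glycosylated membrane proteins protect the limiting membrane, and TFEB, TFE3 and MITF bind E-box sequences, among them the extended CLEAR motif, in front of many lysosomal genes. Glb1 encodes the acid beta-galactosidase that is stained, at a pH above its optimum, as senescence-associated beta-galactosidase (SA-β-gal), a common marker of senescent cells whose lysosomes have expanded. The study used that staining, beside cell numbers and the RNA and protein of other senescence markers, to ask whether PEDF restrains senescence. It reports fewer stained MEFs after PEDF, at an exposure longer than the 24 h of the RNA libraries. The stain reads enzyme activity, which RNA levels do not measure. The RNA libraries allow the related question of whether the transcript for this enzyme, and those of the organelle it belongs to, differed after PEDF.

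The E-box sequences near the RefSeq starts of the genes are shown first, and can be read beside the values of each gene. They were not used to choose the set, although such motifs stand in front of many lysosomal genes, as given above. RefSeq promoter windows of 300 bases (250 before and 50 after the start, build GRCm38.p6) were found for 34 of the 39 genes, and none was found for Asah1, Npc1, Ctsb, Ctsh and Atp6v1h. The E-box CACGTG occurred in the windows of 11 of 34 genes (32.4%), against 8.09% of all 27025 genes with a window. Those outnumber the 19384 genes that passed the count filter, so this background includes genes with few or no counts here. The longer TCACGTGA, the centre of the CLEAR motif, occurred in 6 of 34 (17.6%), against 1.12% of all genes, and the full CLEAR motif, the same letters between a G and a C, in 0 of 34, against 0.370%. Each motif reads the same on both strands, and each longer one contains the shorter ones. Within the 250 bases before the start alone, the shares were 29.4% for CACGTG and 14.7% for TCACGTGA, against 6.86% and 0.907% of all genes. The sites of Glb1 and of 4 further genes that hold CACGTG without the longer form are printed below on the gene's own strand, 5′ to 3′, with the motif in capitals.
Glb1: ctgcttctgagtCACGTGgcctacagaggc
Lamp1: agggcaagatatCACGTGgtccagcgccca
Lgmn: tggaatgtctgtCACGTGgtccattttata
Gaa: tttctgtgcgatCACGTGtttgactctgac
Ctsl: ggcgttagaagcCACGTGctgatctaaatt

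The Glb1 site lies at chr9:114401018-114401047 on the plus strand, and its motif begins 48 bases before the RefSeq start. Those of Lamp1 (chr8:13159088-13159117, plus strand), Lgmn (chr12:102439124-102439153, minus strand), Gaa (chr11:119267811-119267840, plus strand) and Ctsl (chr13:64370739-64370768, minus strand) have a motif that begins 61, 49, 140 and 236 bases before the start. For Lamp1, the first of 4 CACGTG matches in its window is shown. The other window of Lgmn, at a start further upstream, holds no CACGTG. The longer TCACGTGA stood wholly before the start for 5 genes, and the sites of 4 of them, Mcoln1, Ctsd, Gla and Atp6v1a, are shown in the same way, with the 8 bases in capitals.
Mcoln1: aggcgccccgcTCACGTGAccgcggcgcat
Ctsd: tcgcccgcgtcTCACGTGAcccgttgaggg
Gla: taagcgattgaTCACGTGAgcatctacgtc
Atp6v1a: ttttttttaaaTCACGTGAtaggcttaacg

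The Mcoln1 site is at chr8:3500462-3500491 on the plus strand, with a motif that begins 46 bases before the start, and the Ctsd site at chr7:142387908-142387937 on the minus strand, with one that begins 99 bases before it. The Gla site is at chrX:134601215-134601244 and the Atp6v1a site at chr16:44139373-44139402, both on the minus strand, with motifs that begin 228 and 132 bases before the start. The fifth is Ctsa, where the motif begins 13 bases before the start in 1 of its 2 windows and the flanking bases reach past it. In Atp6v0d1 the motif begins 4 bases before the start and crosses it. All distances are to a RefSeq start, which can differ from the gene's end in the count table. The sites of Lgmn, Ctsl, Ctsd, Atp6v1a, Mcoln1 and Ctsa lie inside the gene's span in that table. These are matches of letters, and binding of a factor there was not measured.

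Lysosomal genes were well expressed in the MEFs. On the TPM scale (a level corrected for transcript length and library size), the 39 together made up 0.509% of the control and 0.503% of the PEDF library of experiment 1, and 0.499% and 0.534% of those of experiment 2. The TPM level was highest for Psap, the precursor of the saposins that activate sphingolipid breakdown, at 744 and 778 TPM in control and 681 and 762 TPM in PEDF. Lamp1, an abundant glycoprotein of the lysosomal membrane, stood at 667 and 657 TPM in control and 689 and 729 TPM in PEDF. The ranges of these genes overlapped, so their order is not resolved, and they ranked 132 and 149 among all genes. Then came Ctsd, an aspartic protease, at 433 to 489 TPM, Cd63, a tetraspanin of lysosomes and exosomes, at 292 to 355 TPM, and the cysteine protease Ctsb at 250 to 277 TPM, with no overlap between one and the next.

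Glb1 held place 26 of the 39, at 44.3 and 42.6 TPM in control and 41.3 and 47.5 TPM in PEDF, and its range overlapped that of its neighbour Ppt1. Of the transcription factors, Tfeb and Mitf stood at the low end, while Tfe3 held place 32, with a range that overlapped those of its neighbours. Tfe3 was the most abundant of the family, at 17.4 and 17.7 TPM in control and 18.8 and 19.3 TPM in PEDF. Tfeb was at 6.29 and 5.58 TPM in control and 6.35 and 5.98 TPM in PEDF, a range that overlapped with that of Manba, a beta-mannosidase. Mitf was the lowest of all, at 2.37 and 2.28 TPM in control and 1.76 and 2.61 TPM in PEDF.

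**Figure D1:**
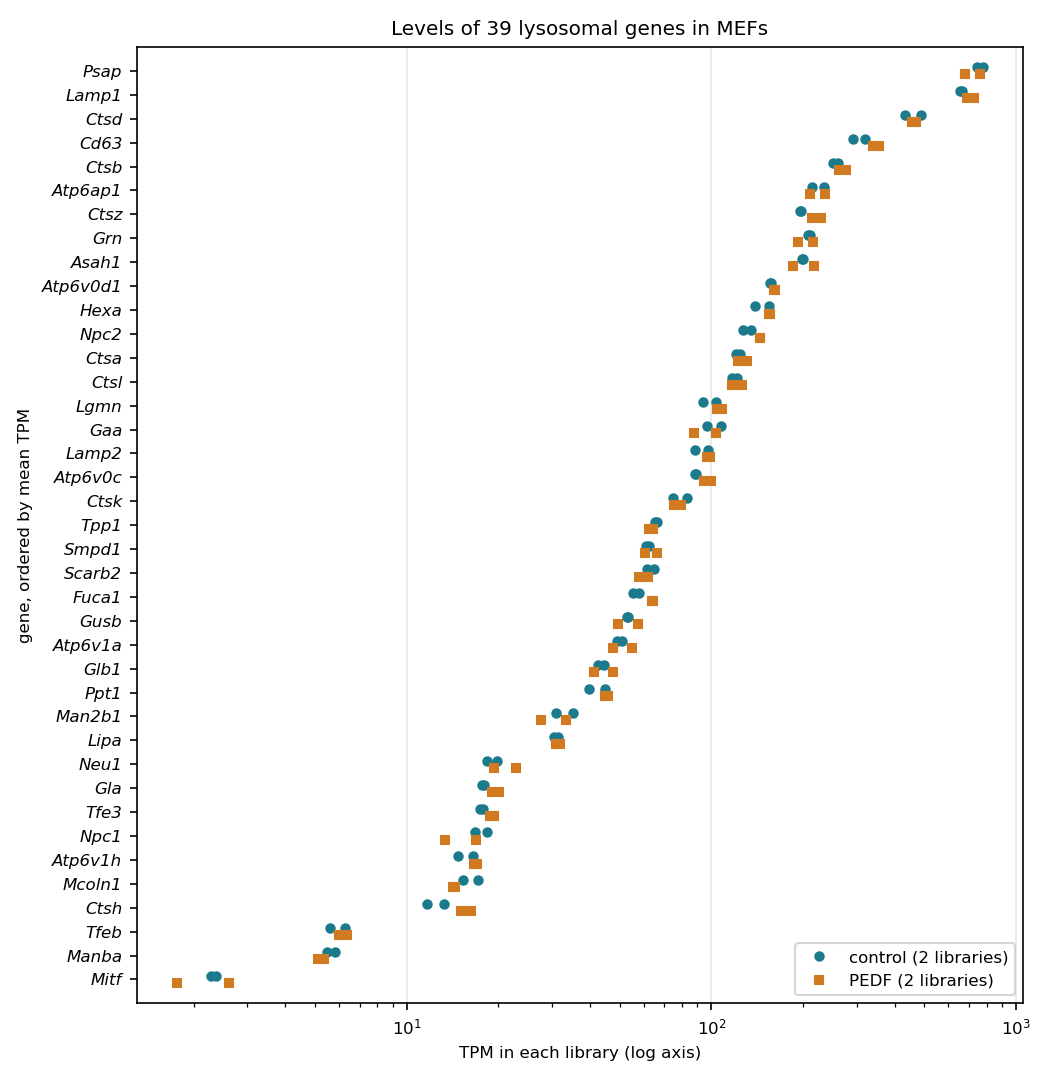
TPM of each lysosomal gene in the 2 control libraries (circles) and the 2 PEDF libraries (squares) on a log axis, with genes ordered by mean TPM. Levels run from Psap and Lamp1, between 657 and 778 TPM, down to Mitf at 1.76 to 2.61 TPM, a range much wider than the spread of the 4 libraries of any of the genes, although many neighbours in the order overlap.

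PEDF was compared with control in these genes. No lysosomal gene passed an adjusted p of 0.05 in the edgeR quasi-likelihood test without a block, where 0.00516% of all genes tested (1 gene) passed. At an unadjusted p under 0.05, 5 of 39 (12.8%) were higher and 0 lower, against 3.22% and 3.66% of all genes, and DESeq2 without a block also called 0 of them, against 0.0594% of the genes to which it gave an adjusted p. The count of 5 was not stable. It changed with some libraries left out, which also leaves 1 library in a group, and it was 2 by DESeq2 and 1 to 2 by limma. The fitted log2 fold changes were small, from -0.19 for Npc1 to 0.36 for Ctsh, with a median of 0.06. Of the 39, 28 (71.8%) were above 0, against 50.2% of all genes tested and 51.5% of the 11744 genes in the same range of mean CPM, whose median was 0.01.

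The control and PEDF library of an experiment share a MEF preparation, and the comparison with the experiment as a block changed these calls. With the block, a gene has 1 residual degree of freedom of its own, and edgeR took the spread almost entirely from all genes tested, so a p-value with the block hardly reflects the gene's own spread between libraries. It called 5 genes higher in PEDF and 0 lower, namely Cd63, Npc2, Ctsz, Ctsh and Fuca1, which is 12.8% of the set against a background of 1.67% higher and 2.07% lower over all genes. In the range of mean CPM of the set, the background was 2.53% higher and 3.05% lower. These genes have different roles, a tetraspanin, a sterol carrier, exopeptidases and a fucosidase. At an unadjusted p under 0.05 with the block, 12 were higher and 1 lower, against 7.18% and 7.38%. DESeq2 with the block called 1 of them, Cd63, and gave an adjusted p to only 1310 genes, of which 9.01% passed. No difference between the experiments in the response could be tested, since each had 1 library per treatment.

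Glb1 showed no difference that these libraries could resolve. The gene (ENSMUSG00000045594, chr9:114401076-114474898 of mm10, plus strand) had 698 and 789 counts in control, for experiments 1 and 2 in that order, and 704 and 885 in PEDF. Scaled by library size, these were 47.3 and 44.2 CPM in control and 45.3 and 49.7 CPM in PEDF, with means of 45.8 ± 2.17 and 47.5 ± 3.10 CPM (SD, n = 2 each). The PEDF library was lower than its control in experiment 1 (0.958-fold) and higher in experiment 2 (1.12-fold), and the groups overlapped. The fitted log2 fold change was 0.06 ± 0.09 (SE), with an adjusted p of 0.922 by edgeR, and the 95% interval of the fold ran from 0.914 to 1.18. The gene Tmppe lies within Glb1 on the same strand and shares 165 exon bases with it, and it had 353 counts over the 4 libraries, 11.5% of the counts of Glb1, so reads in the shared bases are uncertain.

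Among the other glycosidases, which cut sugars from glycoproteins and glycolipids, Fuca1 was the highest in fold change. Fuca1 removes fucose and stood at 67.4 and 62.4 CPM in control and 76.8 and 72.6 CPM in PEDF. Both PEDF libraries were above both controls, with log2 ratios of 0.19 and 0.22 in experiments 1 and 2. Its log2 fold change was 0.20 ± 0.08 (SE), with an adjusted p of 0.696 without the block and 0.0391 with it, and the call was lost with a correction for exon length as well (0.17, adjusted p 0.162). Man2b1, an alpha-mannosidase, had the lowest fold change of the group at -0.10 ± 0.09 (SE; adjusted p 0.836), with 88.4 and 97.5 CPM in control and 80.6 and 93.0 CPM in PEDF. The sialidase Neu1 differed by 0.01 on the log2 scale in experiment 1 and by 0.33 in experiment 2. The group held 6 of 9 genes above 0, with a median log2 fold change of 0.06, and the remaining members Hexa, Gaa, Gla, Gusb and Manba, which act on gangliosides, glycogen, globosides, glucuronides and mannosides, were between -0.09 and 0.16.

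Among the lipid genes, Npc2 and Npc1 stood at opposite ends. Both take part in the export of cholesterol from the lysosome, Npc2 as a soluble carrier in the lumen and Npc1 as the membrane protein that receives the sterol from it. Npc2 was at 260 and 239 CPM in control and 287 and 274 CPM in PEDF, without overlap. Its log2 fold change was 0.17 ± 0.07 (SE), with an adjusted p of 0.696 without the block and 0.0138 with it. Npc1 was at 67.3 and 71.8 CPM in control and 54.9 and 66.5 CPM in PEDF, and both PEDF libraries lay below both controls, although that of experiment 2 was close to the control of experiment 1. Its log2 fold change was -0.19 ± 0.09 (SE), and it missed the threshold both without the block (adjusted p 0.719) and with it (0.0624). Of the lipid group 5 of 7 were above 0, with a median of 0.05 on the log2 scale. The log2 fold changes of the acid ceramidase Asah1, the sphingomyelinase Smpd1, the saposin precursor Psap, the thioesterase Ppt1 and the acid lipase Lipa were between -0.05 and 0.13.

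Proteases gave 2 of the 5 genes called with the block. Ctsh, an aminopeptidase of the cathepsin family, had the largest fold change of the 39 and a low level, with 312 and 322 counts in control and 416 and 420 in PEDF. These were 21.1 and 18.1 CPM in control against 26.8 and 23.6 CPM in PEDF, so that both PEDF libraries exceeded both controls. The difference was 28.6%, or 0.36 ± 0.12 on the log2 scale (SE), with an adjusted p of 0.696 without the block and 0.0215 with it. Ctsz, a carboxypeptidase, was at 100 and 97.9 CPM in control and 120 and 107 CPM in PEDF. Its groups did not overlap either, and its log2 fold change was 0.20 ± 0.08 (SE), with adjusted p-values of 0.696 and, with the block, 0.0204. Ctsz has the shortest exons of the set, and with a correction for exon length as well the value was 0.10 and the call was lost (adjusted p 0.481).

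Tpp1, a tripeptidyl peptidase, had the lowest fold change of the proteases at -0.03 ± 0.07 on the log2 scale (SE; adjusted p 0.954), at 119 and 118 CPM in control and 118 and 115 CPM in PEDF. The group held 7 of 9 genes above 0, with a median log2 fold change of 0.07. The abundant endopeptidases Ctsd, Ctsb and Ctsl had log2 fold changes of 0.03, 0.10 and 0.05. Ctsk, a collagen-degrading cathepsin, was at -0.01, the asparagine-specific protease Lgmn at 0.13, and Ctsa, the protective protein that forms a complex with the Glb1 and Neu1 enzymes, at 0.07.

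Among membrane proteins, Cd63 had the smallest adjusted p of all 39 genes with the block. It stood at 416 and 372 CPM in control and 457 and 454 CPM in PEDF, with means of 394 ± 31.6 and 456 ± 1.97 CPM (SD, n = 2 each). The PEDF libraries were alike and above both controls, which differed from each other by more than the PEDF libraries did. The log2 fold change was 0.21 ± 0.07 (SE), 15.7% higher, with an adjusted p of 0.696 without the block and 0.000204 with it. A transcribed pseudogene, Cd63-ps, had 620 and 639 counts in control and 716 and 703 in PEDF, 9.57% as many as Cd63, so reads that fit both copies are uncertain. Mcoln1, the calcium channel whose opening activates calcineurin and thereby TFEB, was at 40.9 and 44.8 CPM in control and 39.2 and 37.9 CPM in PEDF. Its groups did not overlap, and its log2 fold change was -0.15 ± 0.09 (SE; adjusted p 0.758, and 0.347 with the block). The membrane glycoproteins Lamp1 and Lamp2 had log2 fold changes of 0.12 (adjusted p 0.753, and 0.0839 with the block) and 0.09 (0.823 and 0.305). Scarb2, the receptor that carries glucocerebrosidase to the lysosome, was at -0.05 and progranulin (Grn) at -0.02.

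**Figure D2:**
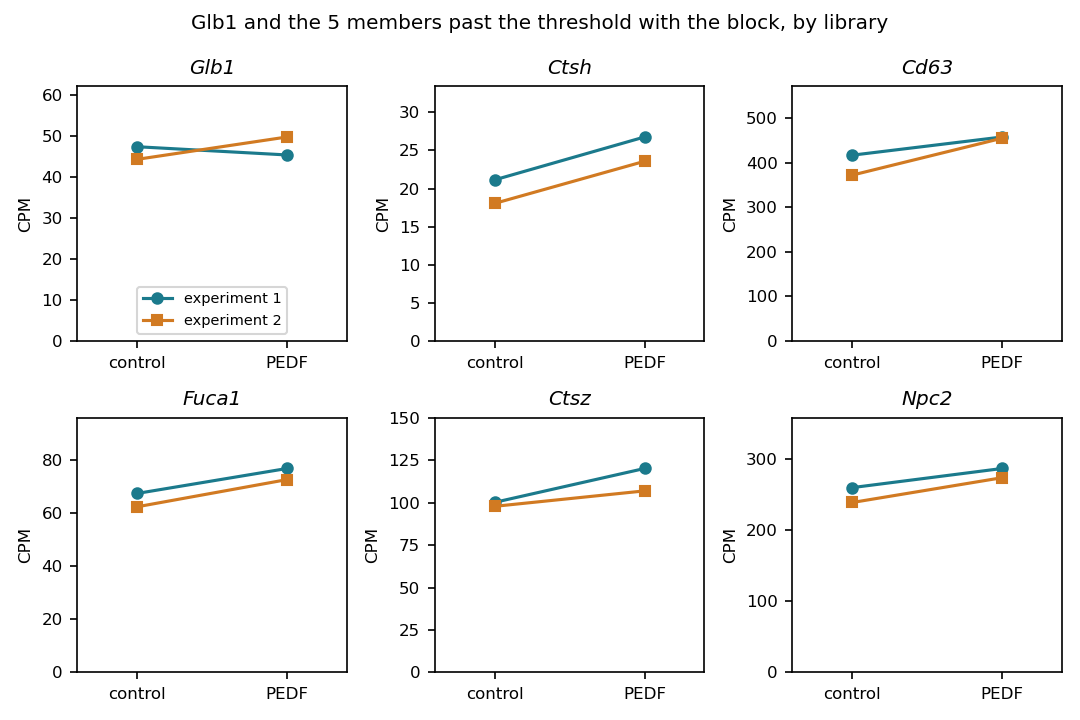
CPM of Glb1 and of the 5 genes called with the experiment as a block, in control and PEDF, with a line for each experiment and axes that start at 0. Glb1 crosses, with the PEDF library lower in experiment 1 and higher in experiment 2, while the lines of Ctsh, Cd63, Fuca1, Ctsz and Npc2 rise in both experiments.

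The proton pump and the TFEB family held no call. All 5 pump genes had a log2 fold change above 0, with a median of 0.07, although with the block and a correction for length only 3 of 5 were above 0. Atp6ap1, at 0.01, turned negative with that correction and on the TPM scale, and Atp6v0d1, at 0.07, turned to -0.02 with the correction. Atp6v0c, part of the membrane ring of the pump, was the highest at 0.16 ± 0.08 (SE; adjusted p 0.729, and 0.0917 with the block), with 107 and 103 CPM in control and 123 and 111 CPM in PEDF. Atp6ap1, an accessory subunit, was at 230 and 245 CPM in control and 232 and 247 CPM in PEDF. Its values followed the experiment and not the treatment. The subunits Atp6v1a and Atp6v1h had log2 fold changes of 0.06 and 0.14.

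Of the TFEB family, Tfe3 was the only gene whose groups did not overlap. It was at 57.2 and 56.8 CPM in control and 63.5 and 62.2 CPM in PEDF, with a log2 fold change of 0.14 ± 0.08 (SE; adjusted p 0.753, and 0.293 with the block). Tfeb was at 12.7 and 10.9 CPM in control and 13.1 and 11.8 CPM in PEDF, and the 95% interval of its log2 fold change of 0.08 ran from -0.24 to 0.40. Mitf, with 77 and 87 counts in control and 62 and 100 in PEDF, differed by -0.39 in experiment 1 and 0.20 in experiment 2 on the log2 scale. The interval for Mitf, -0.55 to 0.43, shows how little its low counts resolve. TFEB-family factors act mainly by moving into the nucleus, which RNA levels do not measure.

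**Figure D3:**
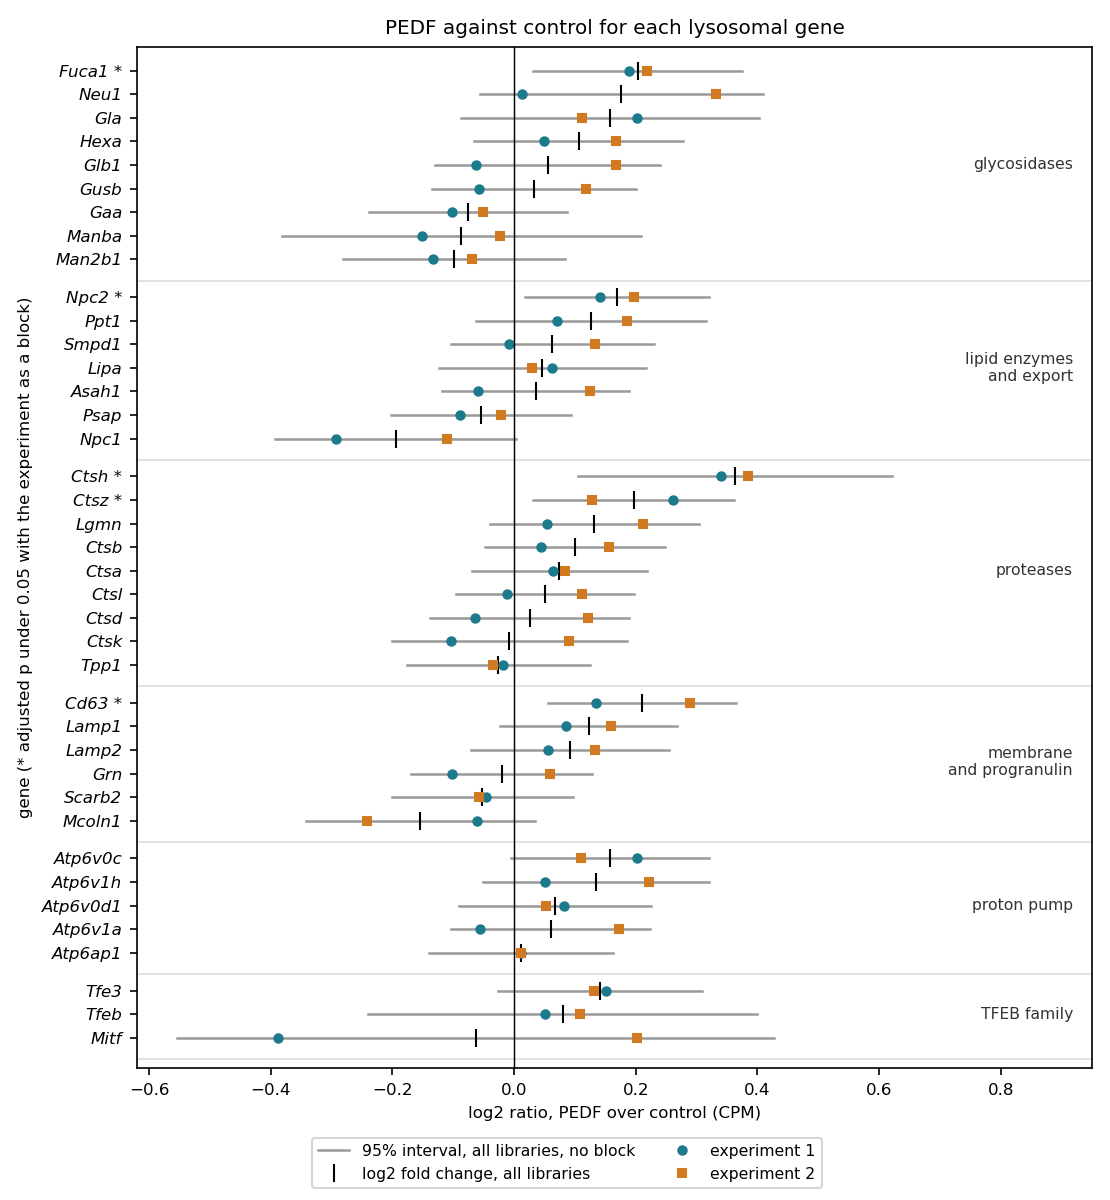
Log2 ratio of PEDF to control for each of the 39 genes, by role: circles and squares are experiments 1 and 2, the black tick is the fitted value over all libraries without a block, and the grey line its 95% interval. Most ticks lie between -0.1 and 0.2, and the 5 genes marked with an asterisk (adjusted p under 0.05 with the block) lie to the right of 0 in both experiments.

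Within experiment 1, 21 of 39 genes were higher in PEDF than in control, against 9683 of the 19384 genes tested, and the median log2 ratio was 0.01. Within experiment 2, 31 were higher, against 9947 of 19384, and the median was 0.12. Over all genes the medians were 0.0001 and 0.0017. Both experiments pointed up for 21 genes (53.8%, against 30.1% of all genes tested) and down for 8 (20.5%, against 28.8%). The other 10 went in opposite directions, and each was lower in experiment 1 and higher in experiment 2: Glb1, Gusb, Ctsd, Ctsl, Ctsk, Asah1, Smpd1, Grn, Atp6v1a and Mitf. Both PEDF libraries were above both controls for 14 genes (35.9%), against 18.9% of all genes and 20.5% of those in the same CPM range, and below them for 4 (10.3%; Npc1, Mcoln1, Scarb2 and Manba), against 18.4% and 19.5%. The difference between the experiments' responses was not tested.

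The MEF preparations were compared in the same genes. With the treatment as a term, 1 of 39 differed between experiments 2 and 1 at an adjusted p under 0.05 by edgeR, against 2.30% of all genes higher and 2.19% lower in experiment 2, which is near the share of any genes. At an unadjusted p under 0.05, 3 were higher and 5 lower in experiment 2, against 7.53% and 7.28% of all genes. The 1 gene called was Lamp2, a lysosomal membrane protein that takes part in chaperone-mediated autophagy, at 332 and 345 CPM in the control and PEDF libraries of experiment 1 and 292 and 320 CPM in those of experiment 2. Its log2 difference was -0.14, with an adjusted p of 0.0386. The median over the 39 genes was -0.03.

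Median fold changes were close to each other with and without an E-box in the promoter window, and their difference was not tested. The median on the log2 scale was 0.06 for the 6 genes with TCACGTGA, of which 5 were above 0, and 0.06 for the 5 with only CACGTG, of which 4 were above 0. It was 0.06 also for the 23 genes with neither, of which 15 were above 0. With the block, 0 genes of the first and the second kind were called, against 4 of those with neither, and the fifth call, Ctsh, had no window in the promoter table. Over all genes tested, 1.67% were called higher and 2.07% lower, so 0 calls in groups of 6 and 5 genes carry little information. Cd63, Npc2, Ctsz and Fuca1 thus lack these letters in the windows searched.

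Lists of other lysosomal genes named 108, of which 106 were tested, and 56 of these (52.8%) had a log2 fold change above 0, with a median of 0.01. None passed an adjusted p of 0.05 without the block by edgeR, where 5 (4.72%) were higher and 3 (2.83%) lower at an unadjusted p under 0.05, against 3.22% and 3.66% of all genes. With the block, 3 (2.83%) were higher and 2 (1.89%) lower at an adjusted p under 0.05, against 1.67% and 2.07%, and 15 (14.2%) were higher and 11 (10.4%) lower at an unadjusted p under 0.05, against 7.18% and 7.38%. Both experiments pointed up for 46 (43.4%, against 30.1%) and down for 28 (26.4%, against 28.8%), and the groups did not overlap for 28 that were higher (26.4%, against 18.9%) and 19 that were lower (17.9%, against 18.4%). On the log2 scale, other hydrolases and their cofactors had a median of 0.06 (17 of 31 above 0), other membrane proteins -0.01 (10 of 23), other pump subunits 0.05 (10 of 16), genes that sort hydrolases to the lysosome 0.00 (8 of 15), and regulators of TFEB at the lysosome, including mTORC1 and the Rag GTPases, 0.00 (11 of 21).

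Igf2r, the large mannose 6-phosphate receptor that delivers newly made hydrolases to the lysosome, was lower in both experiments. It stood at 1020 and 1179 CPM in control and 859 and 981 CPM in PEDF, without overlap. The log2 fold change was -0.26 ± 0.09 (SE), with an adjusted p of 0.696 without the block and 2.41e-07 with it. The smaller receptor for the same tag, M6pr, was at 135 and 131 CPM in control and 138 and 138 CPM in PEDF, with a log2 fold change of 0.05 (adjusted p 0.912). Pla2g15, a lysosomal phospholipase, was at 36.5 and 41.3 CPM in control and 31.6 and 32.8 CPM in PEDF. Its log2 fold change of -0.28 ± 0.09 (SE) had an adjusted p of 0.696 without the block and 0.0349 with it.

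The 3 other genes called with the block were higher in PEDF, and each call was lost with a correction for exon length as well. The pump subunit Atp6v1e1 was at 62.7 and 57.9 CPM in control and 72.3 and 67.7 CPM in PEDF (log2 fold change 0.22, adjusted p 0.0298 with the block). Another pump subunit, Atp6v1f, was at 44.1 and 38.5 CPM in control and 51.9 and 47.4 CPM in PEDF (0.27 and 0.0167). Laptm4a, a membrane protein of late endosomes and lysosomes, was at 522 and 460 CPM in control and 555 and 550 CPM in PEDF (0.17 and 0.00453). Without the block, the adjusted p was 0.696 for both subunits and 0.707 for Laptm4a.

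**Figure D4:**
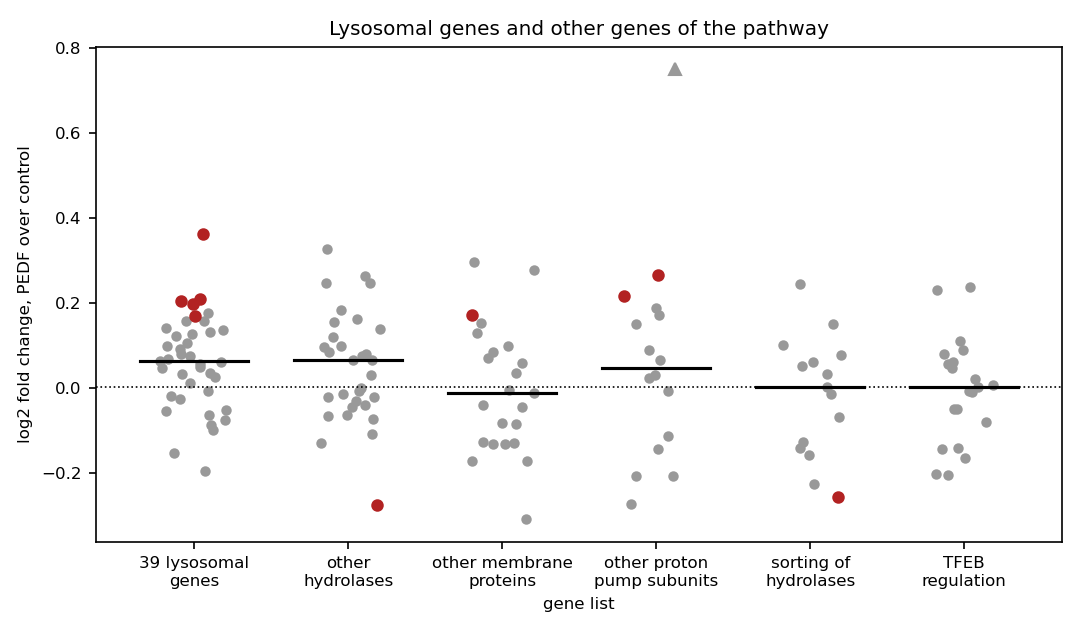
Fitted log2 fold change, PEDF over control, of the 39 lysosomal genes and of 5 lists of other genes of the pathway; each point is a gene, red points have an adjusted p under 0.05 with the block, bars are list medians, and the dotted line is the median of all genes tested. The triangle at the top is Atp6v1c2, drawn at the edge of the axis, whose value of 1.76 rests on 1, 2, 4 and 7 counts, and the red points lie above 0 among the 39 genes, the other membrane proteins and the pump subunits and below 0 among the other hydrolases and the sorting genes.

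Cell type markers moved between the libraries as well, and lysosomal hydrolases are abundant in macrophages. All 15 macrophage markers had counts in every library. Their summed level was 212 CPM in control and 211 CPM in PEDF in experiment 1 (0.997-fold), and 134 against 173 CPM in experiment 2 (1.29-fold). Of the 15, 6 were higher and 1 lower in PEDF in both experiments, against 30.1% and 28.8% of all genes tested. The lower one was Csf1r, the receptor for macrophage colony-stimulating factor, at 33.7 and 30.3 CPM in control and 29.3 and 28.6 CPM in PEDF. The lysozyme gene Lyz2 was the 1 marker of this list called with the block, at 60.5 and 26.3 CPM in control and 62.6 and 46.1 CPM in PEDF. With the block, 1.67% of all genes tested were called higher and 2.07% lower. Lyz2 had the largest rise in CPM of the list in experiment 2, where Csf1r and the marker Ptprc were lower and the other markers higher. Ctss, a cathepsin rich in macrophages and among the other hydrolases, was at 18.1 and 12.9 CPM in control and 19.8 and 17.2 CPM in PEDF. The log2 ratios of Cd63 and Npc2 were also larger in experiment 2 (0.29 and 0.20) than in experiment 1 (0.13 and 0.14), whereas those of Ctsh (0.34 and 0.39) and Fuca1 (0.19 and 0.22) were nearly the same in both, and that of Ctsz was larger in experiment 1 (0.26 and 0.13). The summed fibroblast markers were 51951 and 59540 CPM in control and 47522 and 50986 CPM in PEDF, 0.915-fold and 0.856-fold within the experiments. These sums are carried mostly by Col1a1, Col1a2 and Fn1, which were called lower with the block, as was Pdgfrb, while Dcn and Lum, both proteoglycans of the matrix, were called higher (block log2 fold changes of 0.35 and 0.34). The Col1a2 call was lost with a correction for exon length as well (-0.03, adjusted p 0.806). Without the block, no marker of any list was called. In all, 4 of the 13 markers were higher and 6 lower in both experiments, against 30.1% and 28.8% of all genes tested. The osteoclast list had counts in every library for 3 of 6 markers and summed to between 21.8 and 29.3 CPM, the endothelial sum was between 16.02 and 16.73 CPM and the epithelial sum between 42.6 and 56.7 CPM. The part of these markers in the results was not tested.

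Exon length moved with the fold change. Over the 10701 genes whose mean log2 CPM exceeded 3, the log2 fold change was lower by 0.048 for each doubling of exon length (slope -0.048), with slopes of -0.040 and -0.056 in experiments 1 and 2. The slope over the 39 lysosomal genes was -0.045. For the 20 shorter genes of the set, the median was 0.11 on the log2 scale and 17 were above 0, and for the 19 longer ones it was 0.05 and 11 were above 0. At the ends of the range, Ctsz had the shortest exons, 1441 bases, and Npc1 the longest, 11317 bases. Genes share the 4 libraries, so this relation across genes has no replicates of its own.

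With the block and a correction for length together, 4 genes were called higher and 0 lower, against 0.94% and 1.29% of all genes. They were Cd63 (log2 fold change 0.19, adjusted p 0.00164), Npc2 (0.18, 0.00623), Lamp2 (0.16, 0.0228) and Ctsh (0.36, 0.0352). Fuca1 and Ctsz missed the threshold, as given above. The value for Npc1 went from -0.20 with the block to -0.11 with the correction too. Of the pathway genes, Igf2r (-0.19, 0.000303) and Pla2g15 were still called lower, while 3 missed the threshold. The log2 fold change of Atp6v1e1 was little altered, 0.22 with the block and 0.20 with the correction too (adjusted p 0.0637), whereas those of Atp6v1f (0.27 and 0.17, adjusted p 0.287) and Laptm4a (0.17 and 0.09, adjusted p 0.377) became smaller.

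**Figure D5:**
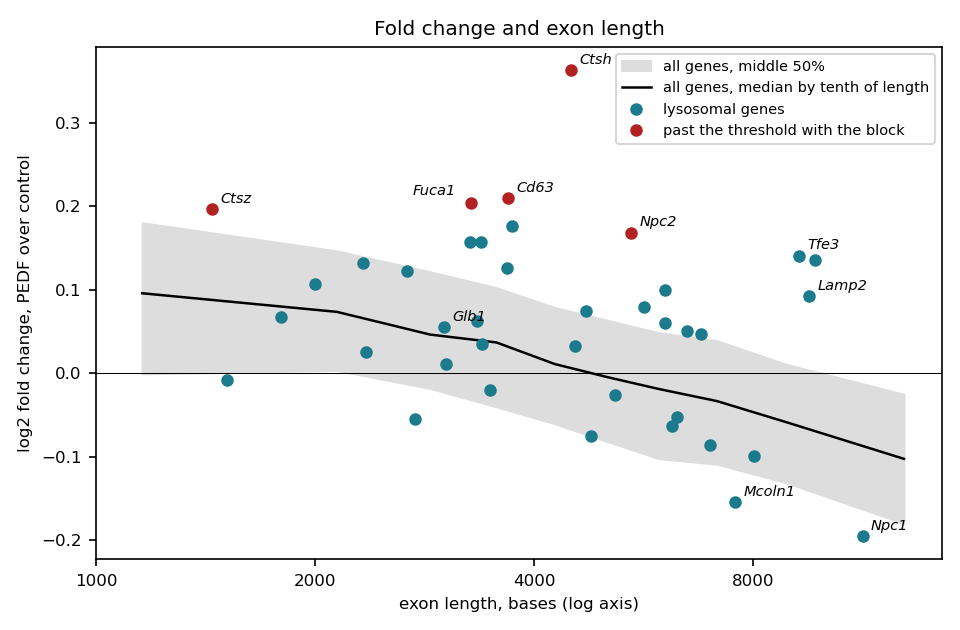
Fitted log2 fold change, PEDF over control, against exon length on a log axis: points are the 39 lysosomal genes, red where called with the block, the line is the median of all genes whose mean log2 CPM exceeded 3, in 10 bins of length, and the band their middle 50%. The line descends from 0.096 at a median length of 1156 bases to -0.10 at 12898 bases, and Ctsh, Cd63, Npc2, Tfe3 and Lamp2 are among the genes above the band.

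Several of these genes share exon bases with neighbours on the other strand, and the strand setting of the counting is not given in the sources used here. The partners with the most counts were Cap1 beside Ppt1, Fdft1 beside Ctsb and Grtp1 beside Lamp1. Npc1 shares 511 exon bases with Rmc1, whose log2 fold change was -0.23, and Ctsz shares 10 with Nelfcd, whose log2 fold change was -0.05. Reads in such bases are uncertain for both genes of a pair.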

How the data were processed

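RNA from 4 MEF libraries was sequenced. Per the labels, polyadenylated RNA was made into directional libraries, and the submitters' processing notes name FastQC 0.11.7, Trimmomatic 0.38, HISAT2 2.1.0, SAMtools 1.9, featureCounts 1.6.3 and mm10. The authors deposited raw counts per gene and TPM values. The annotation and strand setting are not given in the sources used here. Exon lengths were taken from GENCODE M21, which gave 54784 genes the same coordinates, and were found for 19363 of the 19384 genes tested.

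Counts were compared with edgeR 4.0.16 in R 4.3.3 (TMM factors, quasi-likelihood test, at least 10 counts over the libraries, Benjamini-Hochberg adjustment over all genes tested). CPM values were scaled by the TMM factors. The main comparison had no covariate. Alternatives were the experiment as a block, a length correction (a spline with 5 degrees of freedom), RLE factors, other filters, DESeq2 1.42.0, limma 3.58.1 on log2 TPM with pseudocounts of 1 or 0.1, and each library left out. Experiment numbers pair the libraries, since each experiment had its own embryos, and over 10703 genes the experiment difference in control correlated with that in PEDF (r = 0.423). Fits were tested on simulated data. Every gene of the set was named, with values per library for Glb1, the TFEB family, each gene called and the largest rise and fall of each role. Of the other pathway lists, called genes were named. M6pr, Ctss, Atp6v1c2, the cell type markers given by name and the overlapping genes were named after their values were seen, as were Neu1, Lamp1 and Lamp2 for values beyond the rule. Genes and lists were chosen with earlier results of these data known. The p-values rest on 2 libraries per treatment, with the spread moderated over all genes: a gene has 2 residual degrees of freedom without the block (about 13.6 to 13.8 more from the other genes) and 1 with it, where the spread came from all genes.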

Additional observations from a re-analysis of the deposited data

How the results depend on the processing

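Without the block, no lysosomal gene was called under RLE factors, other filters, DESeq2, limma or with any library left out (0 to 0). With the replicate block, 5 were called by edgeR and 1 by DESeq2, and 4 with the replicate block and length correction; the block with RLE factors, without a filter or with edgeR's own filter, settings chosen after seeing the data, gave 5 each. For the other pathway genes, 0 were called without the block, 5 with the replicate block in edgeR, 1 in DESeq2, 2 with the length correction as well, and 5 under each of the 3 added settings, and leaving out a library gave 0 to 1 (1 without control replicate 1). DESeq2 found 0 genes that differed between the experiments, where edgeR found 1. At an unadjusted p under 0.05, the count of 5 lysosomal genes became 0 to 11 with a library left out and 13 with the block. The median log2 fold change was 0.037 to 0.067 in all settings that kept every library and 0.0148 to 0.103 with a library left out. The sign was kept in all settings by 26 of 39 genes. It turned with the block and length correction for Ctsd (-0.0363), Atp6ap1 (-0.0318) and Atp6v0d1 (-0.0183), and for Atp6ap1 also in limma (-0.0126 with either pseudocount). With a library left out, it turned for 12 genes, with log2 fold changes of -0.0784 to 0.135 for Ctsd, -0.0354 to 0.0572 for Atp6ap1, -0.0701 to 0.0280 for Grn, -0.0423 to 0.109 for Asah1, -0.158 to 0.00245 for Gaa, -0.105 to 0.0899 for Ctsk, -0.0401 to 0.101 for Gusb, -0.00939 to 0.126 for Atp6v1a, -0.0132 to 0.119 for Glb1, -0.00942 to 0.102 for Lipa, -0.0280 to 0.185 for Tfeb and -0.336 to 0.154 for Mitf. Leaving out a library under the block was not run, since no degrees of freedom remain. The cause of these changes was not tested. With 2 libraries per treatment, the 95% interval for Glb1 reached from 0.914-fold to 1.18-fold.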
